A study of Spodoptera frugiperda with 6 samples.

Results

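The miR-2, miR-13 and miR-71 family of the fall armyworm Spodoptera frugiperda was described across larvae of a diamide-resistant and a diamide-susceptible strain. The members were chosen by miRBase name and were bmo-miR-71-3p, sfr-miR-2a-5p, bmo-miR-13a-5p, sfr-miR-13b-5p, sfr-miR-2b-5p and sfr-miR-2c-5p. These 6 were found among 128 distinct mature sequences, which the table of read counts lists in 172 entries. Prefixes give the species of the matching miRBase entry (sfr for S. frugiperda, bmo for the silkworm Bombyx mori), and are dropped from here on where no confusion arises. All members passed the filter on low counts and were tested.

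Small RNA was sequenced from 3 libraries of a resistant strain kept in a university laboratory and 3 libraries of a susceptible colony from a commercial insectary. Each library held total RNA of a pool of 100 whole larvae aged 3 to 5 days. No insecticide exposure is given in the labels for these pools, so the comparison is between strains and not between treated and untreated larvae. The strains differ in origin as well as in resistance, and these cannot be told apart. The strain labels of the deposited columns run against the study's own text: every miRNA on the study's list of differential expression that is given there as higher in the resistant strain was lower in the columns labelled resistant, and the reverse. Which of these is right cannot be told, so libraries are called by their labels here. If the labels are exchanged, every direction between strains turns round while its size stays. The scaling to all mapped reads is an exception, since those totals were matched by sample and may then belong to other columns. Diamides are insecticides that act on the ryanodine receptor, the calcium release channel of muscle. Libraries held 388273 to 937481 counts over the distinct sequences, and levels are CPM (counts per 1000000 counts of a library, with library sizes adjusted by edgeR's TMM factors). In whole-larva pools, fewer cells that make a miRNA and less of that miRNA per cell cannot be told apart. Muscle and neuron miRNAs were used as markers of the tissues in these pools. miR-133, a muscle miRNA, had 2433 to 3997 CPM in the libraries labelled resistant and 2588 to 2888 CPM in those labelled susceptible. miR-124, a neuronal miRNA, had 47.9 to 85.8 CPM over all libraries, on 20 to 76 counts.

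A miRNA directs a silencing complex to transcripts through its seed, the bases near its 5′ end that pair with the target. miR-2 and miR-13 form a family of invertebrate miRNAs with a shared seed that pairs with the K box. The K box is a motif in transcripts first described in Drosophila. In Drosophila the family represses the pro-apoptotic genes reaper, grim and sickle, and in the cockroach Blattella germanica it removes Kr-h1 transcripts, which carry the juvenile hormone signal, at metamorphosis. miR-71 has another seed but lies beside the miR-2 genes in many invertebrates and is absent from vertebrates. It is linked to lifespan in the nematode Caenorhabditis elegans and acts on chitin synthesis transcripts in the locust. Those roles are known for miR-71 by name. The sequence counted here comes from the 3′ side of its precursor, and whether it shares those roles was not tested.

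The mature sequences are shown because the seed decides which members belong together, and because 1 member started at another base. They are those of the study's supplementary lists, 5′ to 3′, in the order of their precursors along the scaffold. Capitals mark the seed, bases 2 to 8.
bmo-miR-71-3p: uCUCACUAccuugucuuucaug
sfr-miR-2a-5p: uCACAGCCagcuuugaugagca
bmo-miR-13a-5p: uAUCACAGccacuuugauguggu
sfr-miR-13b-5p: uAUCACAGccauuuuugacgaguu
sfr-miR-2b-5p: uAUCACAGccagcuuugaugagcg
sfr-miR-2c-5p: uAUCACAGccagcuuuguugacu

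The seed AUCACAG was carried by miR-13a, miR-13b, miR-2b and miR-2c, the K-box seed of this family. These 4 sequences shared their first 11 bases, uaucacagcca, where the run common to all of them ended. miR-2b and miR-2c shared a longer run, of 17 bases. miR-2a, as listed, began 2 bases later, so that its bases 2 to 8 read CACAGCC, a seed that no other distinct sequence of the table had. miR-71, as listed from the 3′ side of its precursor, carried CUCACUA, which was also held by 1 sequence only. Among the 128 distinct sequences, AUCACAG at bases 2 to 8 occurred in 6 (4.69%). It was the largest group with a common seed, and the next largest held 4.

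The precursor of miR-2a is printed beside that of miR-2b to show this offset. Capitals mark the mature sequence.
precursor of sfr-miR-2a-5p: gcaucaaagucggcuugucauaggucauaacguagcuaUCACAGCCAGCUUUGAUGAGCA
precursor of sfr-miR-2b-5p: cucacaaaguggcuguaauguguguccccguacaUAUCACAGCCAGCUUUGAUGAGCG
The 2 precursor bases just before the listed miR-2a were u and a, as in its relatives. With them the sequence reads as follows, with the K-box seed in capitals.
sfr-miR-2a-5p with 2 precursor bases: uAUCACAGccagcuuugaugagca
The table counts 1 mature sequence per precursor, and which 5′ end was the more frequent in the reads was not analysed here.

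miR-2a and miR-2b shared the longest run of bases in the family. Positions are counted from 1 at the 5′ end of miR-2b, the first letter is the base of miR-2b and the last that of the other member. miR-2a differed from miR-2b by G24A alone over the 22 bases that both hold, and the pair shared a run of 21 bases. With missing bases counted and gaps allowed, miR-2a and miR-2c were each 3 edits from miR-2b. Compared base by base without gaps, miR-2c differed by A18U, G22C and C23U and was 1 base shorter. An alignment with a gap needs fewer changes, so this list and the number of edits are separate measures. miR-13b differed by G12U, C13U, U19C, C23U and G24U. miR-71 was at least 11 edits from every other member, so its place in the group rests on position and not on sequence. How reads that match both miR-2a and miR-2b were assigned is not given in the sources used here, and the division of counts between this pair is uncertain.

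The 6 precursors lay on the plus strand of scaffold NC_049710.1 (assembly ZJU_Sfru_1.0, coordinates of the study's lists). The precursor of miR-71 was at NC_049710.1:14953151-14953212 and that of miR-2a at NC_049710.1:14966868-14966927. Next came miR-13a at NC_049710.1:14967008-14967064, miR-13b at NC_049710.1:14967128-14967184, miR-2b at NC_049710.1:14967264-14967321 and miR-2c at NC_049710.1:14967398-14967457. From miR-2a to miR-2c the 5 precursors spanned 590 bases, with 63 to 80 bases between neighbours. miR-71 stood 13655 bases before miR-2a, so that all 6 lay within 14307 bases. The nearest other entry of the table on this scaffold, on either strand, was miR-14, a miRNA that limits cell death in Drosophila, 2120862 bases away. When entries within 1000 bases of each other on a strand were joined, 13 groups of 2 or more distinct sequences formed, and the 5 members from miR-2a to miR-2c were the largest of them. Whether these precursors lie in an intron or exon of a gene was not analysed here.

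All 6 mature sequences formed the 3′ end of their precursor. In miR-71 they were bases 41 to 62 of 62, in miR-2a bases 39 to 60 of 60, and in miR-2c bases 38 to 60 of 60. The 5 miR-2 and miR-13 members are nevertheless named 5p in the deposited table. That mismatch was common in the table, where 33 of 67 distinct sequences with an arm in their name were named 5p and lay nearer the 3′ end. The names are kept here as labels and not as a statement of the arm. The opposite arms of the 6 precursors were not analysed here, so the seed and levels given for miR-71 are those of its 3′ sequence alone. Predicted folding energies (RNAfold, minimum free energy) ran from -29.8 kcal/mol for the precursor of miR-71 to -19.8 kcal/mol for that of miR-13a, with a median of -23.0 kcal/mol over the family and -23.5 kcal/mol over all 128 sequences.

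miR-2c was by far the most abundant member, and the members differed widely in level although 5 of them come from neighbouring precursors. In CPM, miR-2c had 17718, 19494 and 18765 in libraries 1, 2 and 3 labelled resistant, against 16864, 18087 and 17837 in libraries 1, 2 and 3 labelled susceptible. The strains overlapped, and the highest of the 6 libraries was 1.16 times the lowest. miR-2c ranked 11 among the 128 distinct sequences.

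miR-71 came next, at rank 26. Its CPM were 2865, 3488 and 3142 in the libraries labelled resistant, against 2435, 2750 and 2867 in the libraries labelled susceptible. The 2 highest values were both from libraries labelled resistant, while resistant library 1 lay just under susceptible library 3.

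miR-2a (rank 40) had 751, 833 and 799 CPM in the libraries labelled resistant, against 690, 760 and 807 CPM in the libraries labelled susceptible. miR-2b (rank 45) had 552, 672 and 538 CPM in the libraries labelled resistant, against 537, 643 and 664 CPM in the libraries labelled susceptible. Both pairs of groups overlapped, and the near-identical pair kept their order in every library, with 1.18 to 1.48 times as much miR-2a as miR-2b.

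The miR-13 members were the least abundant. miR-13b (rank 58) had 330, 363 and 239 CPM in the libraries labelled resistant, against 278, 276 and 250 CPM in the libraries labelled susceptible. Resistant library 3 was the lowest of all and the others labelled resistant the highest. miR-13a (rank 88) had 48.1, 51.5 and 59.8 CPM in the libraries labelled resistant, against 35.7, 28.7 and 32.4 CPM in the libraries labelled susceptible, and the groups did not overlap. These rest on 44, 21 and 25 counts in the libraries labelled resistant and 24, 25 and 22 counts in the libraries labelled susceptible, while no other member had fewer than 100 counts in a library.

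**Figure D1:**
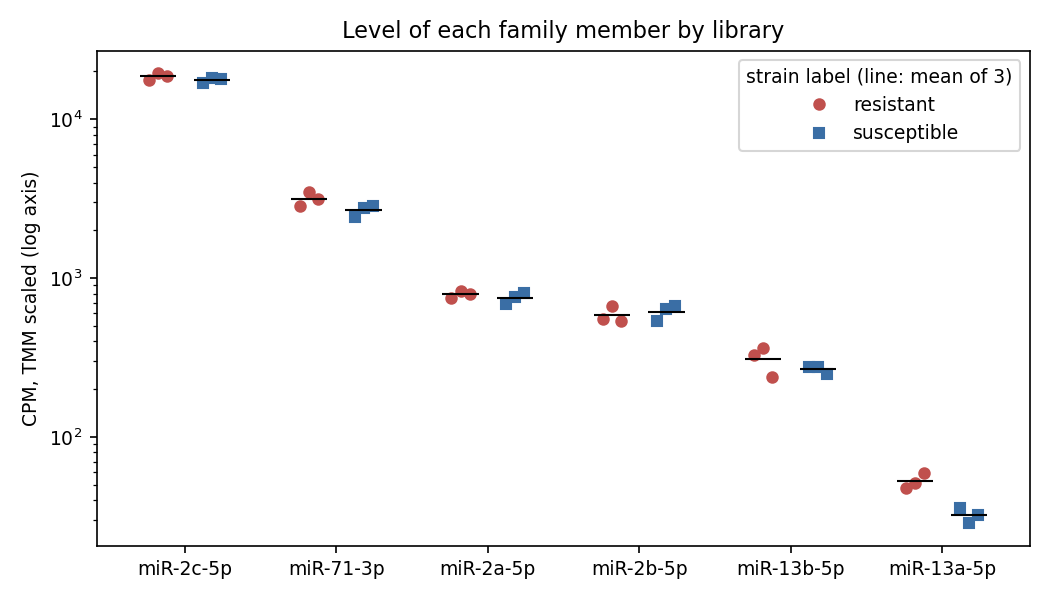
CPM (TMM scaled, log axis) of the 6 members in each library, those labelled resistant left of those labelled susceptible, with points for libraries and lines for the mean of a strain. The members keep the same order in both strains, and only the points of miR-13a, between 48.1 and 59.8 CPM in the libraries labelled resistant and between 28.7 and 35.7 CPM in the libraries labelled susceptible, separate by strain.

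The order of abundance was miR-2c, miR-71, miR-2a, miR-2b, miR-13b, miR-13a in each of the 6 libraries. No 2 neighbours in this order had overlapping ranges over the 6 libraries. The gap was smallest between miR-2a, whose lowest value was 689.8 CPM, and miR-2b, whose highest was 671.6 CPM. Within a library, miR-2c was 5.59 to 6.93 times as abundant as miR-71, and miR-71 was 3.53 to 4.19 times as abundant as miR-2a. miR-2b exceeded miR-13b by 1.67 to 2.65 times. The step from miR-13b to miR-13a was the most variable, at 4 to 9.60 times. From miR-2c to miR-13a the ratio was 314 to 630 (mean 452). Levels are counts of a whole mature sequence of 22 to 24 bases, so length differs little between members, but ligation and amplification can favour some sequences over others and that was not tested.

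Abundance did not follow the order along the scaffold. The most abundant miR-2c was the last precursor and miR-71 the first, with miR-13a, the least abundant, between miR-2a and miR-13b.

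**Figure D2:**
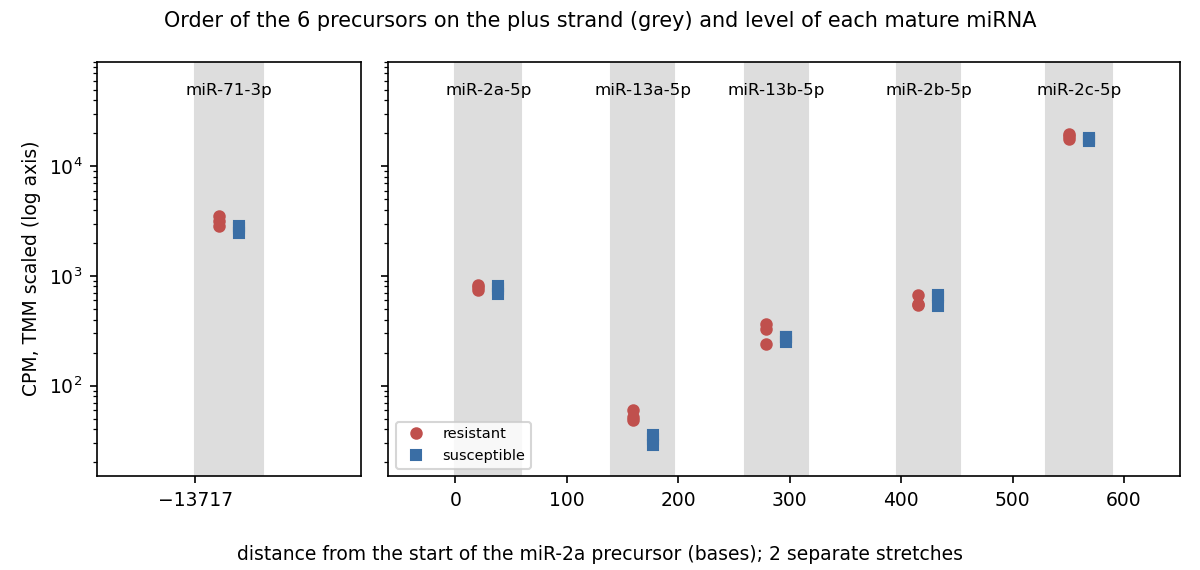
CPM (TMM scaled, log axis) of each mature miRNA at the place of its precursor, given as the distance in bases from the start of the miR-2a precursor, with grey bands for precursors, circles for libraries labelled resistant and squares for those labelled susceptible. The left panel shows miR-71 and the right panel the other 5, on the same scale of distance. Levels fall from miR-2a to miR-13a and rise again through miR-13b and miR-2b to miR-2c.

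The family as a whole made up a steady part of the libraries. The summed level was 22263, 24901 and 23544 CPM in the libraries labelled resistant, against 20839, 22545 and 22457 CPM in the libraries labelled susceptible. It averaged 23570 ± 1319 CPM in libraries labelled resistant and 21947 ± 961 CPM in the libraries labelled susceptible (SD, n = 3 each), and the strains overlapped. As a share of all counts this was 1.96% to 2.53% in a library.

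Each member's share of the family sum needs no scaling between libraries. miR-2c held 79.7% ± 0.879 of the family counts over all libraries (SD, n = 6), and 91.4% ± 0.359 (SD, n = 6) when miR-71 was left out of the sum. Its share was 79.6%, 78.3% and 79.7% in the libraries labelled resistant, against 80.9%, 80.2% and 79.4% in the libraries labelled susceptible, which overlap.

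miR-71 held 12.9%, 14% and 13.3% in the libraries labelled resistant, against 11.7%, 12.2% and 12.8% in the libraries labelled susceptible. By their labels the resistant libraries lay above the susceptible ones, a direction that the study's text would turn round, with means of 13.4% ± 0.572 and 12.2% ± 0.540 (SD, n = 3 each), a difference of 1.19 percentage points. The closest libraries, resistant 1 and susceptible 3, had overlapping counting intervals of 12.4% to 13.3% and 12.2% to 13.3% (Clopper-Pearson, 95%). Reads had no molecular identifiers, so such intervals cover counting error alone.

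miR-13a held 0.216%, 0.207% and 0.254% in the libraries labelled resistant, against 0.171%, 0.127% and 0.144% in the libraries labelled susceptible. These groups did not overlap either, with means of 0.226% ± 0.0251 and 0.148% ± 0.0221 (SD, n = 3 each). For miR-71 and for miR-13a the exact two-sided permutation test gave p = 0.1, which is the lowest value possible with 3 libraries in each strain, and 0.3 after Benjamini-Hochberg adjustment over the 6 shares.

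The remaining shares overlapped between strains. miR-2a held 3.37% ± 0.0241 in libraries labelled resistant and 3.42% ± 0.149 in the libraries labelled susceptible, and miR-2b held 2.49% ± 0.205 and 2.79% ± 0.197 in the same order (SD, n = 3 each). miR-13b held 1.32% ± 0.262 in libraries labelled resistant and 1.22% ± 0.110 in the libraries labelled susceptible (SD, n = 3 each). Adjusted p over these and the share of miR-2c was 0.4 to 0.8 (exact permutation tests, two-sided). The share of miR-2c varied least over the 6 libraries, with a coefficient of variation of 1.10%, and that of miR-13a most, with 25.6%.

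**Figure D3:**
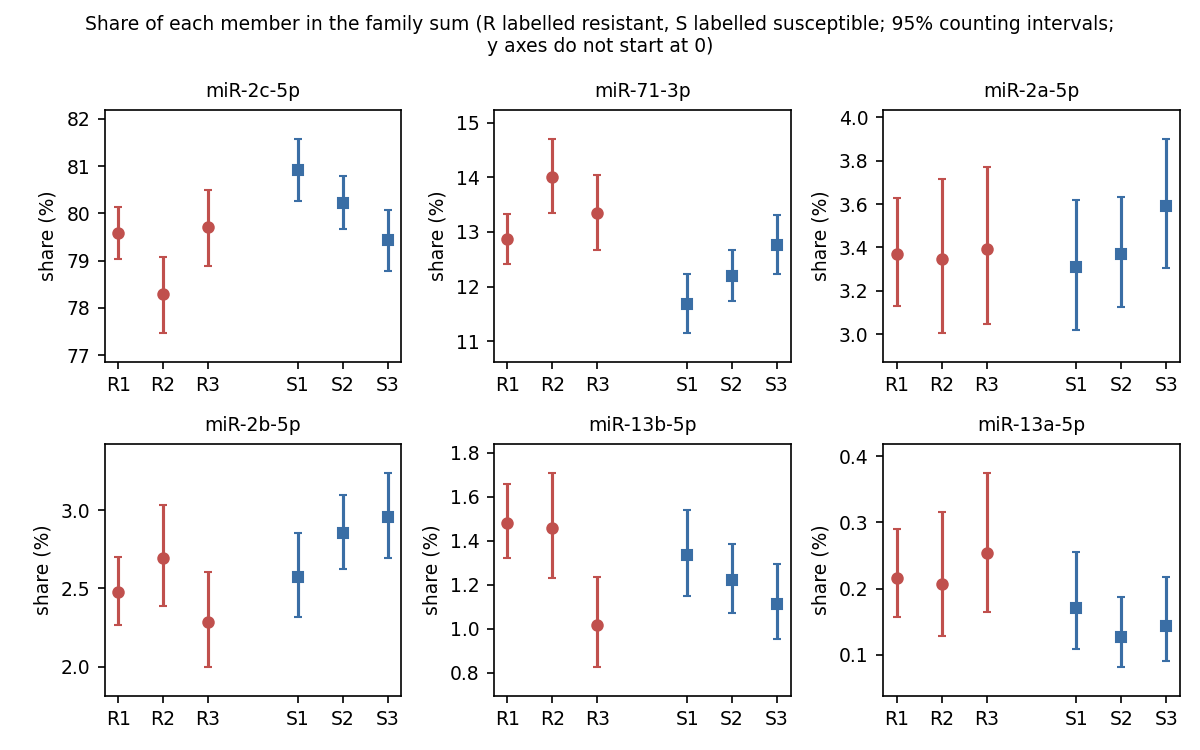
Share of each member in the summed family counts of each library in percent, with libraries labelled resistant (R) left of those labelled susceptible (S) and bars for 95% counting intervals. Each panel has its own axis, which does not start at 0. miR-2c takes 78.3% to 80.9% in every library, and miR-71 takes 12.9% to 14% in the libraries labelled resistant and 11.7% to 12.8% in the libraries labelled susceptible.

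Between strains, 1 of 6 members was called, and it was the least abundant. miR-13a was higher in the libraries labelled resistant, lower if the labels are exchanged, at 53.1 ± 6.05 CPM, against 32.3 ± 3.49 CPM in the libraries labelled susceptible (SD, n = 3 each). The log2 fold change was 0.70 (SE 0.23, 95% interval 0.19 to 1.22) with an adjusted p of 0.0416 in edgeR's quasi-likelihood test, a fold change of 1.63 (1.14 to 2.32). No member was lower and none passed the 2-fold limit that the study also set. Among all 112 tested sequences, 12 were called and over 2-fold (10.7%). Over the whole table, 37 of 112 tested sequences were called (33% of those tested), of which 26 were higher in the libraries labelled resistant (23.2%) and 11 lower (9.82%), a split that also turns round with the labels, so 1 of 6 was no larger a share than the background. Likewise, 1 of 6 members had strains that did not overlap, against 51.8% of all tested sequences. It had every library labelled resistant above every one labelled susceptible, which held for 29.5% of the tested sequences.

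The call of miR-13a did not hold up under other processing. It was made in 2 of 16 other settings, with adjusted p from 0.0400 to 0.991 over the 16, and it was lost when any single library was left out, at adjusted p of 0.0726 to 0.163 and log2 fold changes of 0.61 to 0.78. With DESeq2 the adjusted p was 0.119. When libraries were scaled to all mapped reads in place of the miRNA counts, its log2 fold change was -0.01. That scaling moved the median of all tested sequences by -0.72, and miR-13a then lay 0.66 above the median, against 0.65 in the fit as reported.

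The other members were not called, and their intervals show what these libraries leave possible. miR-71 averaged 3165 ± 312 CPM in libraries labelled resistant and 2684 ± 223 CPM in the libraries labelled susceptible (SD, n = 3 each). Its log2 fold change was 0.24 (SE 0.12, 95% interval -0.03 to 0.50, edgeR adjusted p = 0.165). miR-2c averaged 18659 ± 893 CPM in libraries labelled resistant and 17596 ± 646 CPM in the libraries labelled susceptible (SD, n = 3 each), and its log2 fold change was 0.08 (SE 0.09, 95% interval -0.12 to 0.29, edgeR adjusted p = 0.495). For this dominant member the interval runs from 0.922-fold to 1.22-fold, so a 2-fold difference between the strains lies outside it at the scaling used.

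miR-13b had a log2 fold change of 0.22 (95% interval -0.17 to 0.61), miR-2a of 0.08 (-0.21 to 0.36) and miR-2b of -0.07 (-0.40 to 0.27), with edgeR adjusted p of 0.364, 0.680 and 0.754. When the counts of miR-2a and miR-2b were summed, the log2 fold change was 0.02 (95% interval -0.27 to 0.30, edgeR adjusted p = 0.930). Of their joint counts, miR-2a held 57.6% ± 2.19 in libraries labelled resistant and 55.1% ± 1.05 in the libraries labelled susceptible (SD, n = 3 each; exact two-sided permutation test, p = 0.2). The median log2 fold change was 0.15 over the members and 0.05 over all 112 tested sequences. A positive sign was seen for 5 of 6 members and for 62 of 112 sequences. Other factors move every sequence alike, so positions relative to the median are given too: miR-71 lay 0.18 above it as reported, 0.17 with upper-quartile factors and 0.16 with mapped reads, and miR-2c lay 0.03, 0.03 and 0.02 above it.

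**Figure D4:**
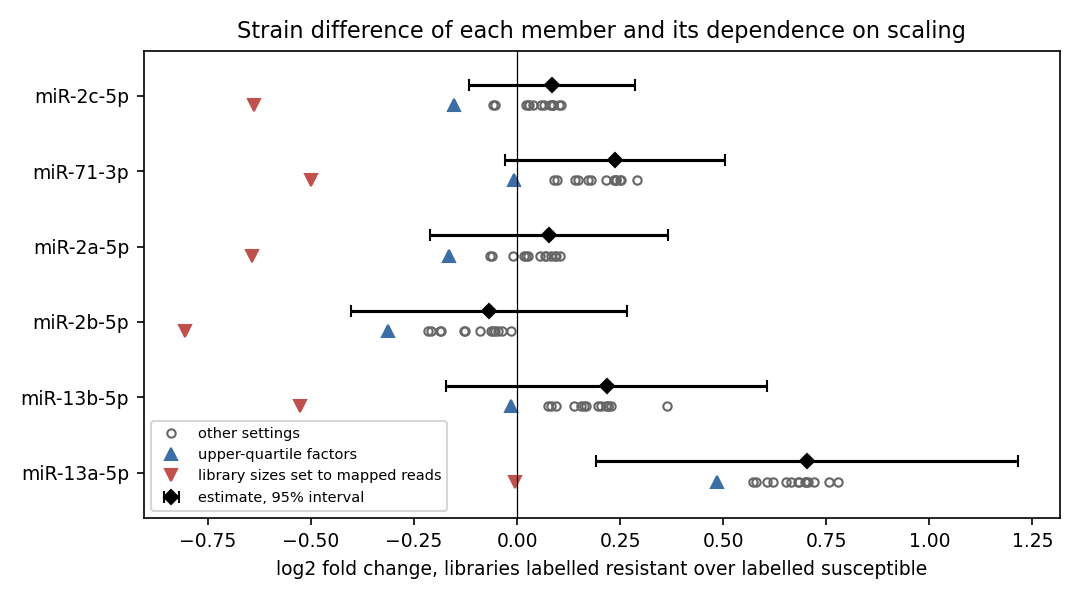
Log2 fold change, libraries labelled resistant over libraries labelled susceptible, of the 6 members. Diamonds with bars are the reported estimates with 95% intervals (edgeR, strain as the only term), triangles the values with upper-quartile factors (up) and with library sizes set to mapped reads (down), and open circles the other settings. The interval of miR-13a, 0.19 to 1.22, is the only one that leaves out zero, and that of miR-2c, -0.12 to 0.29, is the narrowest.

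As a median, the members varied less from library to library than the sequences of the table as a whole. Over all 6 libraries, the SD of log2 CPM was 0.0721 for miR-2c and 0.419 for miR-13a, with a median of 0.166 over the members and 0.315 over 111 tested sequences with counts in every library. Within the libraries labelled resistant the medians were 0.152 for the members and 0.262 for all, and within the libraries labelled susceptible 0.118 and 0.159. Higher counts give less counting error, and the members' ranks run from 11 to 88, and the part of depth in this spread was not tested. miR-13b was an exception to the small spread, with an SD of 0.315 in libraries labelled resistant and 0.0841 in the libraries labelled susceptible.

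Resistant library 2 was the highest of the 6 libraries for 5 of the members, all but miR-13a. Susceptible library 1 was the lowest for miR-2c, miR-71, miR-2a and miR-2b. Set side by side, miR-2a and miR-2c had the most similar profiles, with a root mean square difference of 0.0436 in centred log2 CPM over the 6 libraries. miR-2a and miR-2b, the near-identical pair, differed by 0.111. The median over the 15 pairs of members was 0.213, or 0.145 over the 10 pairs without miR-13a, against 0.453 over all 6105 pairs of sequences. The least similar pair was miR-13a and miR-2b, at 0.458. These are descriptions of 6 libraries that share their depth and scaling with every other sequence.

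Outside the family, the profile nearest to the family sum was that of bmo-miR-279a, an insect miRNA known in Drosophila for its role in sensory neurons, at a root mean square difference of 0.0396. Its mean level was 6917 CPM and its log2 fold change 0.12 (edgeR adjusted p = 0.392). The bmo-miR-993a-5p sequence listed as Spodoptera_mature_110 followed at 0.0582 and sfr-miR-92a-5p at 0.0823, where the median over all other sequences was 0.311. The sum is mostly miR-2c, which lay 0.0146 from it, and miR-2a lay 0.0379 from it. The other members lay further from it than bmo-miR-279a, from 0.0844 for miR-71 to 0.345 for miR-13a.

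The K-box seed was also carried by a pair of miRNAs from outside the cluster, printed to show the seed in them. miR-11 was the nearest sequence outside the family to miR-2c, at 7 edits.
sfr-miR-11-5p: cAUCACAGucagaguucuagcu
bmo-miR-308-3p: aAUCACAGgauaauacugcga
miR-11 represses pro-apoptotic genes in Drosophila. It had 6943, 9412 and 7847 CPM in the libraries labelled resistant, against 7562, 8332 and 9412 CPM in the libraries labelled susceptible, and the strains overlapped (log2 fold change -0.06, SE 0.13, edgeR adjusted p = 0.731). miR-308 had 305, 275 and 390 CPM in the libraries labelled resistant, against 223, 145 and 209 CPM in the libraries labelled susceptible. Its groups did not overlap, and it was called at a log2 fold change of 0.75 (SE 0.21, edgeR adjusted p = 0.0201), with the sign resting on the labels as for miR-13a.

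Added up, the 6 sequences with the K-box seed had 28001 ± 2190 CPM in libraries labelled resistant and 27139 ± 1488 CPM in the libraries labelled susceptible (SD, n = 3 each). Within this seed group miR-2c held 62.8% to 68.4% of the level in a library and miR-11 held 26.8% to 33.1%. miR-2b held 1.93% to 2.34%, miR-13b 0.860% to 1.27%, miR-308 0.526% to 1.40% and miR-13a 0.104% to 0.215%. miR-2c and miR-11, which held most of the seed group, were not called. miR-308 and miR-13a, which held at most 1.40% and 0.215%, were called in the fit as reported. Calls were about as frequent in this group as over the whole table, where 33% of tested sequences were called. The call of miR-13a held in only 2 of 16 other settings, and that of miR-308 was not followed through them.

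Other miRNAs that act on cell death genes in Drosophila were not called more often than the table as a whole. Of bantam, miR-14, miR-263a, miR-263b and miR-11, 1 of 5 was called higher in the libraries labelled resistant and none was called lower. Their median log2 fold change was -0.06. By these labels 23.2% of all tested sequences were called higher, and 33% were called in either direction. The 1 called of these 5 was miR-14, at a log2 fold change of 0.59 (SE 0.10, edgeR adjusted p = 0.00175). bantam, which represses the pro-apoptotic gene hid, had a log2 fold change of 0.01 (edgeR adjusted p = 0.950). Of the tissue markers, 1 of 3 was called higher, which among so few sequences is near the background of 23.2%. This was miR-7, a miRNA of sense organs and neurons, at a log2 fold change of 0.95 (SE 0.31, edgeR adjusted p = 0.0416) and levels of 43.7, 51.5 and 23.9 CPM in the libraries labelled resistant, against 25.3, 18.4 and 19.1 CPM in the libraries labelled susceptible, which overlap. The other neuronal marker, miR-124, had a log2 fold change of 0.00 and the muscle marker miR-133 one of 0.22 (edgeR adjusted p of 0.996 and 0.324). The calls of miR-308, miR-14 and miR-7 are those of the fit as reported and were not followed through the other settings. The part of tissue composition in the values of the family was not tested.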

How the data were processed

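Single-end reads (50 bp) were trimmed by the authors with cutadapt 3.4, keeping those of 18 nt or longer, and aligned to ZJU_Sfru_1.0 and to the precursors of miRBase 22 with miRDeep2. The deposited table holds raw counts of the authors, RPM values (reads per 1000000, by the authors) and a signal headed by the authors as normalized with DESeq2. The counts were used for every test, RPM for alternative shares and order, and the signal was not analysed. The totals implied by RPM (834989 to 1958553) differ from the sums of the counts. Names, sequences and coordinates come from the study's supplementary lists. Entries with the same mature sequence carry identical counts and were taken once.

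Counts were fitted with edgeR 4.0.16 in R 4.3.3 (TMM, filterByExpr, glmQLFit, glmQLFTest, strain as the only term, all 6 libraries), with p adjusted by Benjamini-Hochberg over 112 tested sequences and called under 0.05. Shares were compared with exact permutation tests (scipy 1.17.1) and precursors folded with RNAfold 2.7.2. DESeq2 1.42.0 was an alternative, beside other factors, filters, a replicate block and leaving out each library. The procedure was tested on simulated data whose changes were larger than that of miR-13a. The simulation therefore does not bear on the call of miR-13a. Named miRNAs were the 6 members, others with the same seed, a cell death list, a tissue list and the 3 profiles nearest to the family sum. The members and lists were chosen with earlier results of these data known. Each library is a separate pool of larvae by the study's methods, so p-values measure the spread between pools. Library numbers come from accession order and the labels' titles. Deviations of same-numbered libraries correlated at 0.0477, 0.270 and 0.271, and those of differently numbered libraries at -0.356 to 0.139. No pairing is given in the labels, so the numbers entered only the alternative with a replicate block. Whether they mark pairs or a batch was not tested.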

Additional observations from a re-analysis of the deposited data

How the results depend on the processing

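The number of members called was 0 in place of 1 with DESeq2, with no factors, with upper-quartile factors, with library sizes set to mapped reads, with no filter, with at least 10 counts in every library, with the replicate block, with the 3 most abundant sequences left out and with any library left out (0 to 0). It was 1 with copies kept and with miR-2a and miR-2b summed. The log2 fold change of miR-13a was 0.66 with DESeq2, 0.72 with no factors, 0.48 with upper-quartile factors, 0.65 with no filter, 0.57 with the 10-count filter, 0.70 with the replicate block (adjusted p = 0.0618, edgeR), 0.58 without the top 3 and -0.0063 with mapped reads. Leaving out 1 library gave 0.61 to 0.78.

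The sign of miR-13a turned with mapped reads. Signs also turned in some settings for the members that were not called, other than miR-2b. With upper-quartile factors the log2 fold change was -0.0072 for miR-71, -0.16 for miR-2a, -0.014 for miR-13b and -0.15 for miR-2c. With mapped reads these were -0.50, -0.64, -0.53 and -0.64. With the 10-count filter miR-2a and miR-2c were at -0.066 and -0.060, and without the top 3 at -0.060 and -0.054. Leaving out 1 library put miR-2a between -0.0097 (without susceptible library 1) and 0.10. miR-2b was negative in all 15 of its alternatives. The median of all sequences moved by -0.23 with upper-quartile factors, -0.72 with mapped reads, and -0.12 with both the 10-count filter and the top 3 left out. Relative to the median of each setting, miR-71 lay 0.18 above it as reported, 0.17 with upper-quartile factors and 0.16 with mapped reads. Without susceptible library 1 the median stayed positive, at 0.035, while miR-2a turned.

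Over the whole table, 26 sequences were higher and 11 lower in the libraries labelled resistant. This became 11 and 24 with upper-quartile factors, 3 and 29 with mapped reads, 10 and 16 with the 10-count filter, 13 and 22 without the top 3, 17 and 13 with DESeq2, 17 and 15 with no filter and 32 and 24 with copies kept. Leaving out 1 library gave 21 to 29 calls against 37, with 21 without susceptible library 2 and 24 without susceptible library 1. The replicate block gave 23 higher and 14 lower. Each library labelled susceptible correlated best with the resistant library of its own number, while resistant library 1 correlated best with susceptible library 2.

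The abundance order was the same in its 3 alternatives. Differences in shares moved by less than the spread between libraries in 46 of 47 alternatives, and the exception was miR-2c, whose share differed by 0.0989 percentage points without miR-71 in the sum, against -1.002 with it. With 3 pools per strain and 21 to 44 counts of miR-13a, its interval is wide.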
